A study of Homo sapiens with 8 samples.

Results

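S phase was divided into 4 equal stages along an order of RPE-1 hTERT cells, and the second stage held 229 of 914 ordered cells, 121 wild-type (WT) and 108 CFAP20-KO (KO), from 3023 sorted wells on 8 plates. Cells with at least 5000 molecules on the autosomes entered a correspondence analysis of their 500 kb bins. Its first axis set the order, and the end with the higher chromosome 19 share was set to 0. A cell's position is its rank divided by the number of ordered cells, so it is an order and not a time, and members lie at positions over 0.25 and up to 0.5. The other stages held 228, 228 and 229 cells.

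RPE-1 hTERT cells come from human retinal pigment epithelium and were immortalised with telomerase. Both genotypes were grown in the same medium, pulsed for 15 min with 10 µM EdU with no other treatment, fixed in ethanol and sorted, and each plate held both. EdU is a thymidine analogue built into newly made DNA, and single-cell EdU sequencing (scEdU-seq) gives the genome positions of the labelled fragments of each cell; 1 sequenced fragment is called a molecule here. The series title ties CFAP20 to RNA polymerase II that is arrested ahead of replication forks travelling in the same direction, and the comparison of the genotypes within 1 stretch of S phase asks how fork tracks and labelled places differ without it. The labels do not say how the CFAP20 knockout was made or whether it is 1 clone. Each cell's genotype comes from a column of the files, because the genotype label reads CFAP20-KO for every plate. DNA label shows neither expression nor loss of a protein, so neither the knockout nor the cell type could be checked: CFAP20 itself, at chr16:58113592-58129381 (GRCh38), held 20 molecules in the whole stage, too few to test.

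Early in S phase forks start in gene-rich, actively transcribed chromatin, and gene-poor chromatin near the nuclear periphery is copied late. Each origin sends out a pair of forks, so a short EdU pulse leaves a labelled track behind each fork whose length follows fork speed. Long genes are often copied in the middle or late part of S phase. Some very long transcribed genes overlap common fragile sites, loci where copying can fail under stress.

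The values that chose the members were these same positions, so the labelling of the stage against the others is a description with no test. The first axis held 22.3% of the variation over 5423 bins. At the early bound the last cell left out had an axis value of -0.759 and a chromosome 19 share of 1.88%, and the first member had -0.756 and 1.36%. At the late bound the last member had -0.0312 and 1.36%, and the first cell left out had -0.0269 and 0.828%. The bounds therefore cut through a continuum of cells. The median chromosome 19 share was 2.31%, 1.27%, 1.06% and 1.35% in the stages from first to last, so chromosome 19 label fell between the first and second stage and did not order the later ones.

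Along the second axis, which held 12.4% of the variation, 0 of 228 cells of the first stage lay above 0, against 194 of 229 members, 223 of 228 cells of the third stage and 33 of 229 of the last. The members at or below 0 were 19 KO cells (17.6% of KO members) and 16 WT cells (13.2%). These cells lay toward the early bound, at a median position of 0.302 in KO and 0.303 in WT. The other members stood at 0.375 and 0.379. Within each genotype the members at or below 0 were the less strongly labelled. Their median was 11167 molecules in KO and 21505 in WT, against 20208 and 32487 in the other members. Their label was also spread over more of S phase: the SD of timing over a cell's molecules, on the 0 to 1 scale of the order, had a median of 0.202 in KO and 0.154 in WT, against 0.127 and 0.130 in the other members. The measures per cell other than the share of ordered cells, the 5 Mb windows and the genes with enough molecules were also computed without them; the chromosome shares, the pair curve and the profile at gene starts were not.

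The plates held 1746074 to 4181841 fragments from 377 or 378 wells, and each gave 8 to 19 KO and 8 to 18 WT members. Well barcodes are reused between plates: any pair of plates shared 377 or 378, and a shared barcode carried the same genotype on both plates in 174 to 216 wells. Plates are the replicates and pair the genotypes. Values are means ± SD over 8 plates. The 8 plate differences of a measure were tested by an exact sign-flip permutation test (two-sided), which cannot go below p = 0.00781, with Benjamini-Hochberg adjustment over 10 measures.

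The label of the stage lay between that of early and late chromatin. Molecules per kb in protein-coding gene bodies over the rest of the autosomes, as log2, were 0.57 ± 0.04 in WT cells of the first stage, -0.01 ± 0.06 in the second, -0.60 ± 0.05 in the third and -0.94 ± 0.03 in the last. Against all ordered cells, chromosome X had less than its usual share in the stage (log2 -0.98), as did gene-rich chromosomes 16 (-0.44), 22 (-0.22), 19 (-0.19) and 17 (-0.09) and gene-poor chromosome 18 (-0.21). Chromosomes 6 and 9 had more (both 0.13). Chromosomes 20 (-0.19) and 11 (-0.10) also had less, while gene-poor chromosome 13 stood near its usual share (-0.04). Label of the stage was thus low on these gene-rich chromosomes and on chromosomes X and 18, but gene-poor chromosomes 13 and 18 were not alike.

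Long protein-coding autosomal genes were those of 50 kb or more with a mean of 20 or more molecules per plate in the stage. Among these 3565 genes the median label in the stage over that in all ordered cells was 0.66 on the log2 scale. The minimum favours genes labelled in the stage, so this median follows in part from the choice. The 10 genes with the highest value, described with no test because the order was built from these molecules, were MGAT4D (1.46), DDX31 (1.45), JADE1 (1.38), VCAN (1.38), RNASEH2B (1.37), ZEB2 (1.35), LRIG1 (1.34), ZEB1 (1.34), VANGL1 (1.34) and PIK3R1 (1.33). DDX31, an RNA helicase gene at chr9:132592997-132669983, shows the pattern: label there, in CPM (molecules per 1000000 molecules of the stage), was 17.2 ± 11.8 in WT cells in the first stage, 95.2 ± 23.5 in the second, 12.9 ± 13.7 in the third and 2.48 ± 1.90 in the last. The gene was thus copied mostly within the stage. ZEB1 and ZEB2 encode repressors of epithelial genes, VCAN the matrix proteoglycan versican, PIK3R1 a regulatory subunit of phosphoinositide 3-kinase and RNASEH2B a subunit of RNase H2, which removes ribonucleotides from DNA. None of the 10 passed the limma voom test between genotypes, and 0 had an unadjusted p under 0.05; their log2 changes ran from -0.68 (RNASEH2B) to 0.44 (JADE1).

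KO cells of the stage were less strongly labelled and had fewer labelled regions, but their labelled tracks were wider. KO cells held 1.5 times fewer molecules than WT cells and 1.26 times fewer labelled regions, and their track width was 1.80 ± 0.603 kb greater. The plot of 4 measures by plate shows each plate's pair of values.

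Molecules per cell averaged 19797 ± 3797 in KO and 29700 ± 5824 in WT. The plate means ran from 12148.5 through a median of 20054 to 24490 in KO, and from 20012.5 through 31420 to 35122 in WT. KO was lower on 8 of 8 plates, although the groups overlapped, and on plate 3 the genotypes were nearly equal (23026 and 23309). The difference was -0.59 ± 0.26 on the log2 scale (exact sign-flip p = 0.00781, adjusted 0.0260). It was -0.57 without the members at or below 0 on the second axis, and it lost its call (adjusted p = 0.0521) with members at positions 0.3 to 0.55, at -0.53, or with positions ranked within each genotype, at -0.54. Over single cells the median was 19290.5 molecules in KO and 29204 in WT, and 14 KO cells (13%) and 6 WT cells (4.96%) held fewer than 10000.

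**Figure D1:**
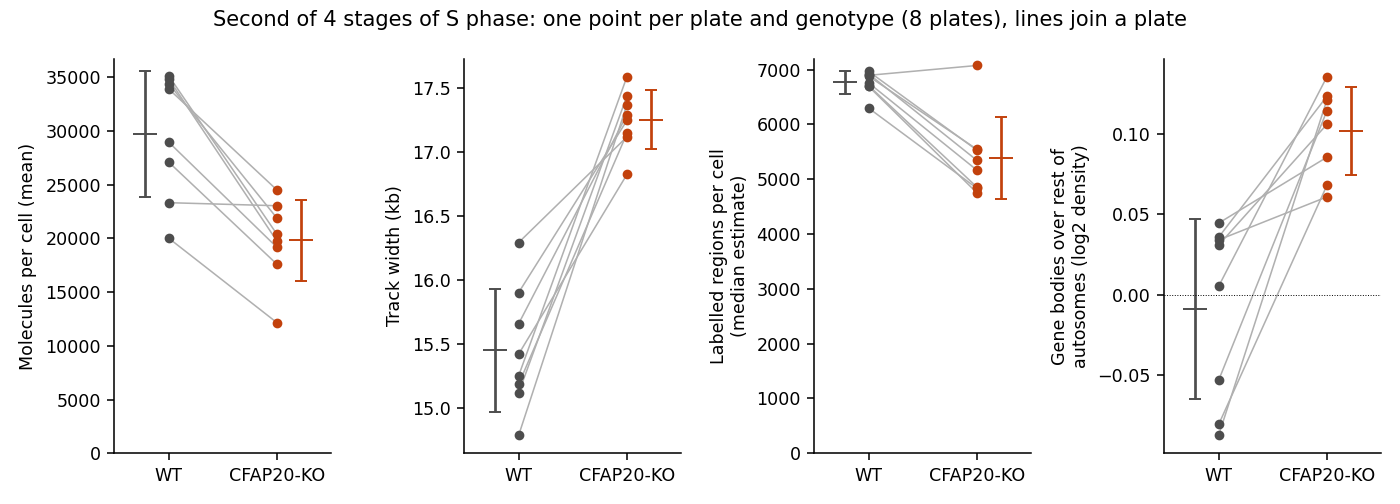
Molecules per cell, track width (kb), labelled regions per cell and the log2 gene body ratio in second-stage cells, 1 point per plate and genotype, with grey lines joining the 2 genotypes of a plate and bars giving the mean and SD of 8 plates. KO points lie above all WT points for track width and the gene body ratio, below their WT partner on 8 of 8 plates for molecules and on 7 of 8 for regions; the axes for track width and the gene body ratio do not start at 0.

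Track width was read from distances between molecules of a cell, as the distance at which the excess of pairs, relative to pairs at 400 to 500 kb, was down to 50% of that at 5 to 10 kb. It was 17.3 ± 0.232 kb in KO (lowest 16.8, median 17.3, highest 17.6) and 15.5 ± 0.481 kb in WT (14.8, 15.3 and 16.3). The lowest KO plate lay above the highest WT plate, and KO was wider on 8 of 8 plates (exact sign-flip p = 0.00781, adjusted 0.0260). The difference kept its call over 15 other settings, from 1.41 kb with equal weight per cell to 2.11 kb without the bins of very high count. With every cell thinned to 5000 molecules the difference was 1.57 kb; molecules per labelled region still differed between the genotypes in these thinned cells.

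The decay of the pair excess gives the shape behind this number. At 12.5 kb the excess was 64.7% ± 2.07 of its 5 to 10 kb value in WT and 73.0% ± 0.680 in KO, and at 17.5 kb it was 39.7% in WT and 48.8% in KO, higher in KO on 8 of 8 plates at both distances. The order turned at longer distances: at 37.5 kb it was 13.6% in WT and 11.6% in KO, and at 47.5 kb 12.5% and 9.90%, with KO higher on 1 and 0 of 8 plates. Relative to its own 5 to 10 kb value, the KO excess was thus above that of WT up to about 27.5 kb and below it from 37.5 kb on. The curves compare decay and not the number of pairs.

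**Figure D2:**
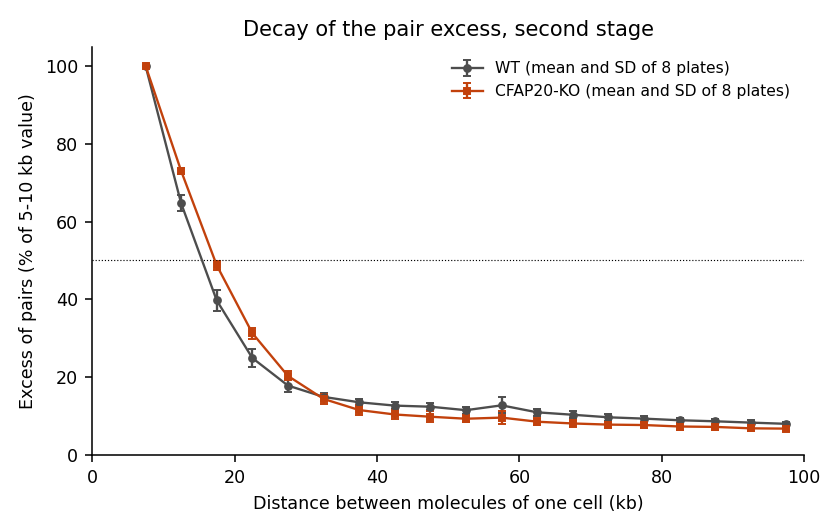
Excess of pairs of molecules within a cell, as percent of the value at 5 to 10 kb, against the distance between them in kb, for WT and KO cells of the second stage (points and bars are means and SD of 8 plates; the dotted line marks 50%). The KO curve lies above the WT curve at 12.5 to 27.5 kb and below it from 37.5 kb on.

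Labelled regions per cell, estimated from the square of a cell's molecules over its excess pairs from 1 to 100 kb, were 5386 ± 750 in KO (4750, 5253 and 7074 as lowest, median and highest plate) and 6764 ± 214 in WT (6297, 6817 and 6966). KO was lower on 7 of 8 plates, and on plate 7 KO stood above WT (7074 and 6894), so the groups overlap through that plate. The log2 difference was -0.34 ± 0.16 (exact sign-flip p = 0.0156, adjusted 0.0391), and -0.40 ± 0.08 without the members at or below 0 on the second axis. It kept its call over 13 other settings, between -0.42 and -0.33. The estimate assumes regions of like weight; on simulated cells it returned fewer regions than were put in.

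Molecules per labelled region were 3.82 ± 1.30 in KO and 4.52 ± 1.11 in WT, a log2 difference of -0.27 ± 0.36 that did not pass (adjusted exact sign-flip p = 0.143). With every cell thinned to 5000 molecules the direction turned to 0.34 (adjusted p = 0.0312), since equal molecules were then divided by fewer regions in KO.

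Other features of the stage did not pass between genotypes. The timing spread of a cell was 0.138 ± 0.0122 in KO and 0.136 ± 0.00515 in WT (adjusted exact sign-flip p = 0.928). Similarity of cells, the mean correlation of 1 Mb profiles between cells of a plate and genotype at 5000 molecules each, was 0.228 ± 0.0489 in KO and 0.25 ± 0.0324 in WT (adjusted exact sign-flip p = 0.346). The stage held 24.9% ± 5.83 of ordered KO cells and 25.1% ± 2.32 of ordered WT cells, and the mean position of members was 0.375 in both; both values rest on the positions that chose the members and are a description. The mean timing of molecules was 0.433 in both genotypes. Timing is built from the same positions, so this value too is a description.

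Label moved toward gene bodies in KO cells of the stage. The gene body ratio was 0.10 ± 0.03 in KO (0.06, 0.11 and 0.14 as lowest, median and highest plate) and -0.01 ± 0.06 in WT (-0.09, 0.02 and 0.04). The groups did not overlap, and KO was higher on 8 of 8 plates, by 0.11 ± 0.06 (exact sign-flip p = 0.00781, adjusted 0.0260). The difference was 0.13 without the members at or below 0 on the second axis and 0.11 without chromosomes 7, 10, 12 and 20. It lost its call with members at positions 0.3 to 0.55, at 0.10 (adjusted exact sign-flip p = 0.0586). It depended on how the genotypes were aligned: with cells ranked within each genotype it turned to -0.066 (adjusted exact sign-flip p = 0.0781). KO cells also made up less of the first stage, which held 21.0% of ordered KO and 28.7% of ordered WT cells, and the part of this in the result was not tested.

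At gene starts the label dipped in both genotypes. Over 15101 protein-coding starts, the first 5 kb downstream stood at -0.11 ± 0.02 in WT and -0.08 ± 0.03 in KO, as log2 against the regions 40 to 50 kb away on both sides. From 5 to 10 kb downstream WT stood at -0.03 ± 0.03 and KO at 0.02 ± 0.03, and from 15 to 20 kb at -0.03 ± 0.03 and 0.02 ± 0.04, higher in KO on 8 of 8 plates in both stretches. The WT dip thus extended into the gene, and the KO dip did not go past the first 5 kb.

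Label in 10 kb downstream of starts over 10 kb upstream was -0.02 ± 0.02 in KO and -0.04 ± 0.02 in WT, a difference of 0.03 ± 0.03 that did not pass (exact sign-flip p = 0.0312, adjusted 0.0625). With 25 kb on each side, a distance chosen after the profile had been seen, the values were -0.003 ± 0.02 in KO and -0.04 ± 0.02 in WT, and KO was higher on 8 of 8 plates by 0.04 ± 0.02, a description with no test.

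The direction of the fork through a start was inferred from the slope of timing over 250 kb on each side, for genes of at least 20 kb in the steeper part of all starts. At 2145 starts read in the direction of the fork the genotype difference over 25 kb was 0.04 ± 0.05 and at 2177 starts read against it 0.05 ± 0.05, both without a test for the same reason. The first minus the second was -0.01 ± 0.06, above 0 on 2 of 8 plates (exact sign-flip p = 0.734), so no difference by direction was detectable at this spread. The inferred direction rests on all ordered cells, including those tested.

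Beside the other stages, the second shared most of its differences with the first and the third. Molecules per cell were lower in KO in each stage, with log2 differences of -0.32, -0.59, -0.55 and -0.61 from first to last. Track width was 2.54, 1.80, 2.04 and 0.486 kb greater in KO, and regions differed by -0.41, -0.34, -0.26 and -0.64 on the log2 scale. None of 9 tests of the second stage's difference against another stage passed, and 1 had an unadjusted exact sign-flip p under 0.05. The nearest was track width against the last stage, where the second stage's difference was greater by 1.32 ± 0.582 kb on 8 of 8 plates (exact sign-flip p = 0.00781, adjusted 0.0703).

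The gene body ratio differed by 0.07, 0.11, 0.07 and -0.16 from first to last. It was higher in KO on every plate of the second stage and lower in KO on every plate of the last, and the second minus the last was 0.27 ± 0.08 (exact sign-flip p = 0.00781, a comparison added after the values had been seen and not adjusted).

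**Figure D3:**
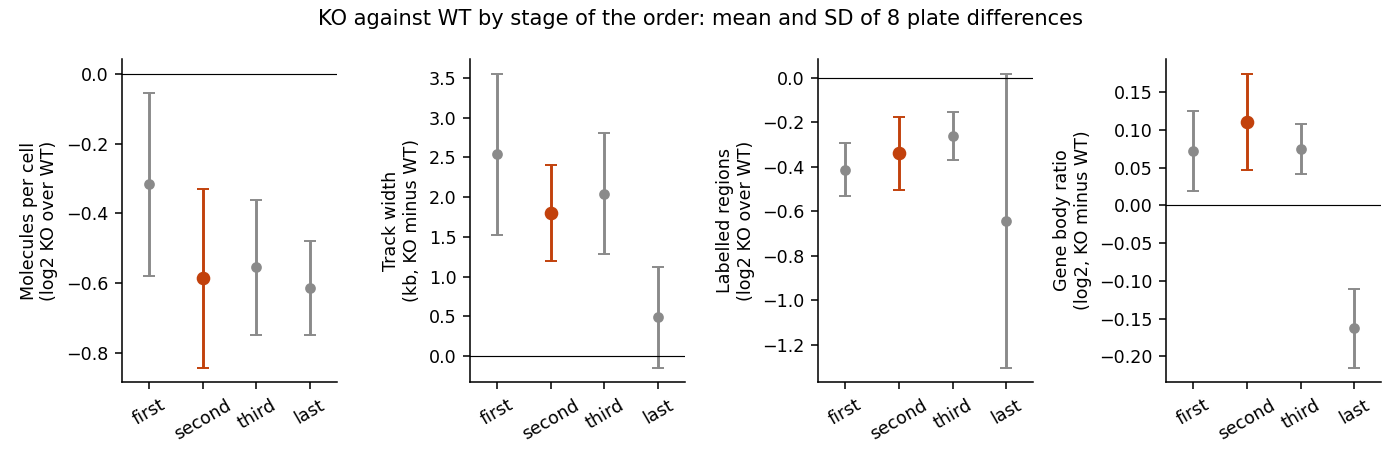
KO against WT in each stage of the order for molecules per cell (log2), track width (kb), labelled regions (log2) and the gene body ratio (log2), as means and SD of 8 plate differences, with the second stage in colour and a line at 0. The second stage's width difference of 1.80 kb lies beside 2.54 and 2.04 kb in the first and the third stage and 0.486 kb in the last, and the gene body difference turns from 0.11 to -0.16.

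Chromosomes took different shares of the stage's molecules in the 2 genotypes, tested over 23 chromosomes by exact sign-flip permutation. Chromosome 7 held 5.88% ± 0.146 of molecules in WT and 4.89% ± 0.122 in KO, a log2 difference of -0.27 ± 0.04 on 8 of 8 plates (adjusted exact p = 0.0225). Chromosomes 20 (-0.27 ± 0.14), 21 (-0.16) and 13 (-0.11) were also lower on 8 of 8 plates at the same p, as were chromosomes X (-0.11, adjusted exact p = 0.0490) and 2 (-0.07, adjusted exact p = 0.0399) on 7 of 8. Chromosomes 6 (0.14 ± 0.06), 14 (0.10), 1 (0.09) and 5 (0.08) were higher on 8 of 8 plates, and chromosome 16 on 7 of 8 (0.11, adjusted exact p = 0.0490).

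Chromosome 7 was lower in KO in each stage (-0.42, -0.27, -0.19 and -0.44), and so was chromosome 20 (-0.11, -0.27, -0.36 and -0.25). Others turned: chromosome 21 was -0.16 in the second stage and 0.48 in the last, higher there on 8 of 8 plates, and chromosome 13 went from -0.11 to 0.28, also on 8 of 8. Chromosome 6 went the other way, from 0.14 to -0.14, lower in KO on 8 of 8 plates of the last stage. The number of copies of each chromosome in the 2 lines was not tested.

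**Figure D4:**
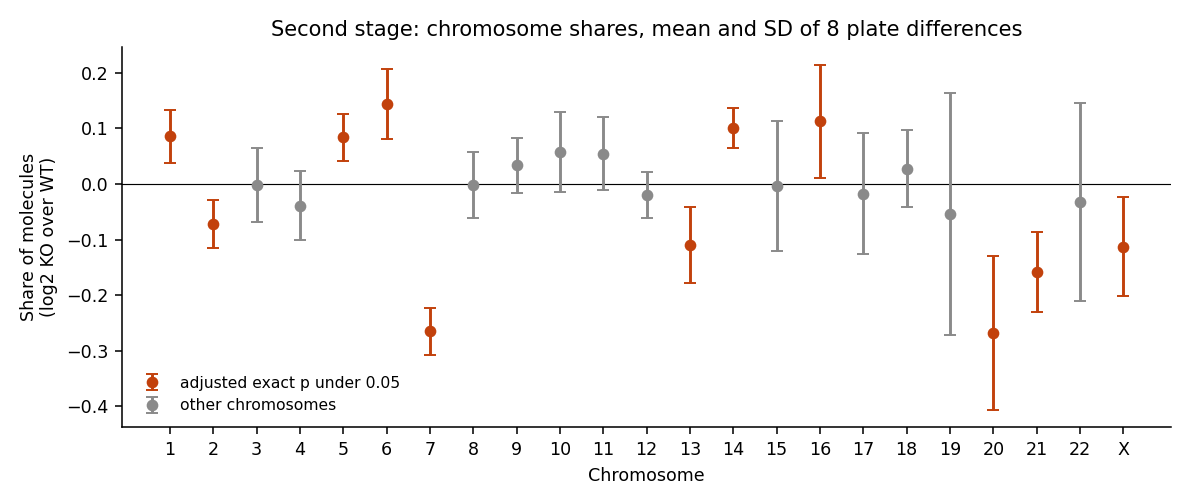
Share of the second stage's molecules on each chromosome, log2 of KO over WT, as the mean and SD of 8 plate differences; coloured points have an adjusted exact p under 0.05. Chromosomes 7 and 20 lie lowest at -0.27 and chromosome 6 highest at 0.14.

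Molecules per 5 Mb window were tested by limma voom with plate as a block, after scaling to the stage's total. Of 600 windows 118 were lower in KO (19.7%) and 108 higher (18%), with median log2 changes of -0.41 and 0.29. Of 600 windows, 269 had a KO difference in the stage that differed from that in the other stages (44.8%); 84 of the 118 lower and 82 of the 108 higher windows were among them, and 80 and 74 had the opposite sign in the other stages. With cells ranked within each genotype, 55 of the 118 lower windows were called again and 28 had the opposite sign, 4 of them with a call. Of the 108 higher windows 75 were called again and 6 had the opposite sign, 0 with a call.

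The window with the lowest value lay on the short arm and centromere side of chromosome 10, chr10:35000001-40000000, with 11 protein-coding genes. WT cells held 4287 ± 1144 CPM there (2693, 4457 and 5795 as lowest, median and highest plate) and KO cells 1387 ± 119 (1243, 1353 and 1589). The groups did not overlap, and the log2 change was -1.61 ± 0.10 (SE, limma adjusted p = 9.09e-11), with -1.10 in the other stages. Bins of very high count, 24 in the genome, include 7 on chromosome 10 and held 0.853% ± 0.236 of the stage's molecules in WT and 0.637% ± 0.274 in KO; their part in this window was not tested.

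The next lower window, chr7:110000001-115000000 with 15 protein-coding genes, held 2524 ± 197 CPM in WT and 1031 ± 214 in KO, again without overlap (log2 -1.27 ± 0.09 SE). Windows of chromosome 13 at chr13:65000001-70000000 (-1.21 ± 0.17 SE) and chr13:85000001-90000000 (-1.10 ± 0.16 SE) hold 2 and 4 protein-coding genes. In the first of these WT cells held 217, 902, 3958 and 2359 CPM from the first stage to the last, and KO cells 236, 427, 2778 and 4804. Label thus peaked in the third stage in WT and in the last in KO, and the second stage caught less of it in KO. With cells ranked within each genotype both chromosome 13 windows lost their call, at -0.20 and -0.16, while the windows of chromosomes 10 and 7 kept theirs at -1.22 and -0.92. The fifth, chr9:45000001-50000000 (-1.01 ± 0.32 SE), rested on a mean of 16.5 molecules and no protein-coding gene. It lost its call with cells ranked within genotype (-0.31, limma adjusted p = 0.473) and without plate 5 (-0.83, limma adjusted p = 0.0568).

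Of the higher windows, chr10:20000001-25000000, with 23 protein-coding genes, held 1591 ± 192 CPM in WT (1248, 1628 and 1827) and 2735 ± 125 in KO (2562, 2769 and 2946), without overlap (log2 0.79 ± 0.07 SE, limma adjusted p = 2.07e-08; 0.77 with cells ranked within genotype). Its change in the other stages was 0.03. The windows chr1:105000001-110000000 (0.62 ± 0.10 SE), chrX:1-5000000 (0.62 ± 0.13 SE) and chr16:50000001-55000000 (0.53 ± 0.07 SE) followed. The window chr14:105000001-110000000 (0.92 ± 0.35 SE) rested on a mean of 15.3 molecules, was higher on 6 of 8 plates, lost its call without plate 1, 5, 6 or 7 (0.63 to 0.93), and stood at -0.069 with cells ranked within genotype. Chromosome 10 thus held both the window that was lowest in KO and one that was higher on every plate.

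Molecules per gene body were tested in the same way over 5674 genes with a mean of at least 10 molecules. In KO 301 genes were lower (5.3%) and 301 higher (5.3%), with median log2 changes of -1.11 and 1.10. They lay at 239 and 256 separate stretches of 500 kb, and genes that overlap share molecules because strand was not used in counting. Of all tested genes 737 (13%) had a KO difference in the stage that differed from the other stages, and 187 of the 301 lower and 233 of the 301 higher genes were among them. The called genes were long, with a median length of 258 kb for the lower and 207 kb for the higher genes against 118 kb for all tested. Among the lower genes 52 lay on chromosome 7, where 303 genes were tested, 35 on chromosome 2, where 534 were tested, and 17 on chromosome 20, where 95 were tested. Among the higher genes 30 of 468 tested lay on chromosome 1, 30 of 324 on chromosome 10, 27 of 395 on chromosome 6 and 26 of 405 on chromosome 5; 5.3% of all tested genes were called in each direction.

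WT label of the genes that were higher in KO mostly peaked after the second stage. WT label in CPM was highest in the third stage for 129 of the 301 (42.9%, against 20.6% of all tested genes). It was highest in the last for 86 (28.6%, against 6.49%) and in the second for 24 (7.97%, against 44.9%). In KO the highest stage was the second for 144 (47.8%, near the 46.2% of all tested genes). In the last stage KO stood above WT in 60 of the 301 (19.9%, against 58.3% of all tested). The median log2 ratio was -1.07, against 0.17 for all tested. Because these genes were chosen for more KO than WT label in the second stage, their peaks follow in part from that choice. In the last stage most of them held less KO than WT label.

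Genes that were lower in KO showed the opposite in the last stage. KO stood above WT there in 230 of 301 (76.4%, against 58.3% of all tested). The median log2 ratio was 0.50, against 0.17 for all tested. WT label was highest in the second stage for 113 of the lower genes (37.5%, against 44.9% of all tested). It was highest in the first for 62 (20.6%, against 28.0%) and in the third for 107 (35.5%, against 20.6%). KO label was highest in the second for 25 (8.31%, against 46.2%), in the first for 111 (36.9%, against 27.8%) and in the third for 128 (42.5%, against 20.8%). An excess over all tested genes in the third stage was thus present in both genotypes. Because the genes were chosen for a KO difference in the second stage, these peaks follow in part from the choice. In the first and the third stage KO stood above WT in 117 (38.9%, against 51.3% of all tested) and 138 (45.8%, against 50.9%). The values of other stages come from other cells, but from the same order, and this description carries no test.

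Of the 10 genes with the greatest rise, VAV3, which encodes an activator of small GTPases, lies at chr1:107571161-107965180 in one of the higher windows. Its label was 19.8 ± 9.77 CPM in WT (8.40, 18 and 35.6 as lowest, median and highest plate) and 153 ± 65.0 in KO (59.7, 128 and 265). The groups did not overlap, and the log2 change was 2.82 ± 0.40 (SE, limma adjusted p = 8.07e-08). From the first stage to the last WT cells held 17.9, 19.8, 122 and 414 CPM and KO cells 34.7, 153, 351 and 227. VAV3 label thus climbed to the last stage in WT and peaked in the third in KO.

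MTR, the methionine synthase gene at chr1:236795281-236903981, held 10.8 ± 7.91 CPM in WT (0, 10.2 and 24.5) and 63.2 ± 27.5 in KO (23.9, 58.4 and 113), higher in KO on 8 of 8 plates with a small overlap (log2 2.41 ± 0.48 SE, limma adjusted p = 1.72e-04). RCAN2, a regulator of calcineurin at chr6:46220736-46491970, held 9.30 ± 5.70 in WT and 60.0 ± 36.4 in KO, higher on 7 of 8 plates (log2 2.46 ± 0.55 SE). In the last stage it stood at 358 ± 110 CPM in WT and 128 ± 49.8 in KO. The other protein-coding genes among the 10 were CA8 (2.76), which encodes a carbonic anhydrase-related protein, RERG (2.49), which encodes a Ras-like growth inhibitor, and CSNK2A2IP (2.45). The non-coding genes were LINC01411 (3.03 ± 0.44 SE), LOC101927182 (2.49), LOC105374492 (2.44) and PROX1-AS1 (2.36).

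Of the 10 genes with the greatest fall, SPSB4, an adaptor of a ubiquitin ligase at chr3:141051347-141148611, held 53.7 ± 18.2 CPM in WT (36.3, 46.7 and 92.1) and 8.25 ± 4.76 in KO (0, 7.98 and 16.4). The groups did not overlap (log2 -2.55 ± 0.55 SE, limma adjusted p = 5.39e-04). In the first stage the order was the reverse, with 54.5 ± 22.3 in WT and 109 ± 36.7 in KO. COL15A1, a collagen gene at chr9:98943907-99070787, held 38.9 ± 16.4 in WT and 8.75 ± 12.3 in KO, lower on 7 of 8 plates (log2 -2.57 ± 0.60 SE), and 143 ± 38.9 against 100 ± 65.8 in the first stage. SPSB4 label in KO thus fell steeply after the first stage, while WT cells held about as much in the second stage as in the first.

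The other falls clustered on a few chromosomes. PCAT5 (-2.59 ± 0.47 SE) and LOC107984188 (-2.86 ± 0.58 SE) lie in the lowest chromosome 10 window; PCAT5 held 99.9 ± 30.2 CPM in WT and 17.8 ± 12.9 in KO, without overlap. On chromosome 7 were LINC01393 (-2.69), FLJ40288 (-2.60), the T cell receptor beta locus TRB (-2.54), AHCYL2 (-2.43), which encodes a relative of S-adenosylhomocysteine hydrolase, and LOC105375158 (-2.41). LOC105370247 (-2.41) lies in the lower chromosome 13 window and stood at -0.66, without a call, with cells ranked within genotype. Of the 10 genes, 5 lie on chromosome 7, whose share was lower in KO as a whole.

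**Figure D5:**
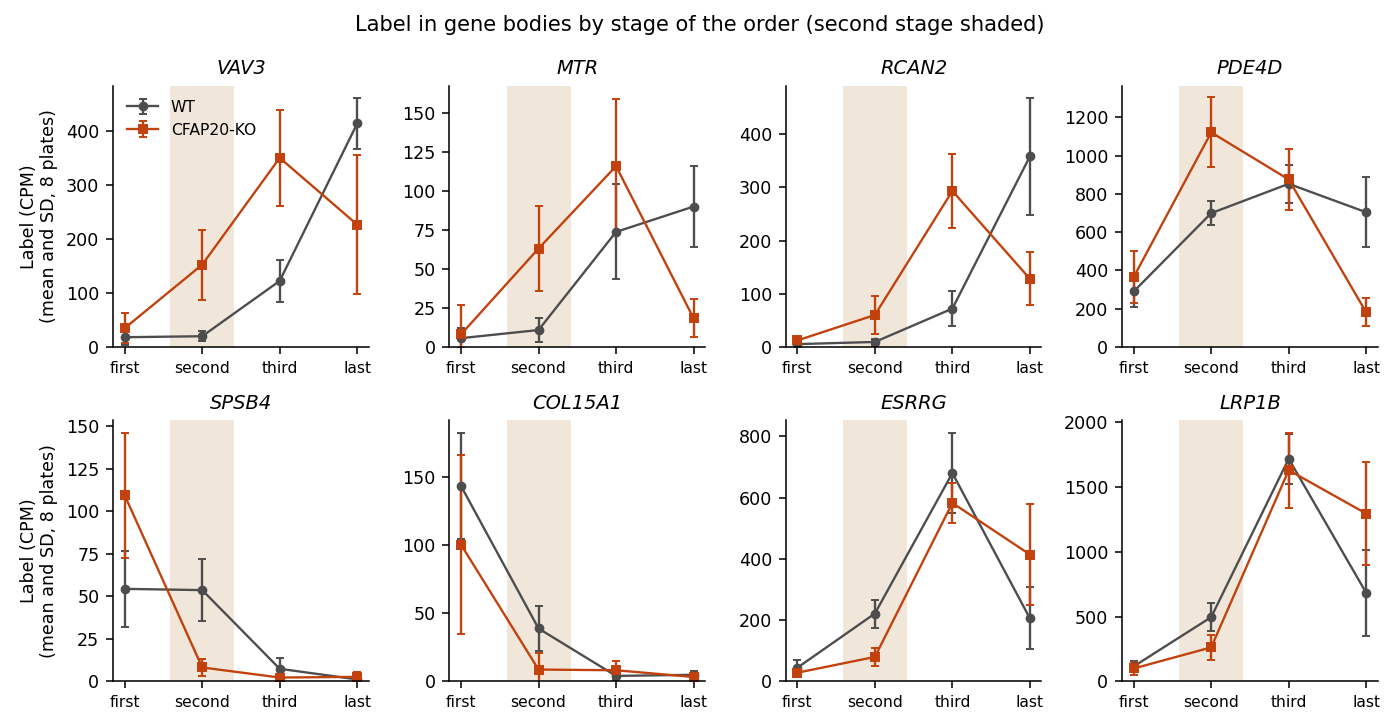
Label in CPM in 8 gene bodies, for WT and KO cells from the first to the last stage of the order (means and SD of 8 plates; the second stage is shaded). VAV3, MTR, RCAN2 and PDE4D stand higher in KO in the shaded stage and lower in the last, and SPSB4, COL15A1, ESRRG and LRP1B stand lower in KO in the shaded stage.

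Common fragile site genes all had enough label to be tested. Of 20, 7 were lower and 3 higher in KO, where 5.3% of all tested genes were called in each direction. Their median log2 change was -0.18 against -0.02 over all genes tested. Their median label in the stage over all ordered cells was -0.67, against 0.41 over the 23998 genes with at least 10 molecules. The called genes as a whole were long, with medians of 258 and 207 kb against 118 kb for all tested. Genes of this list named here run from 634 kb (ESRRG) to 2304 kb (CNTNAP2), and the list was not compared with genes of like length. Among the lower were ESRRG (-1.44), IMMP2L (-1.44), AUTS2 (-1.29), MACROD2 (-1.02), LRP1B (-0.99) and NEGR1 (-0.59), and among the higher PDE4D (0.68) and CDH13 (0.28); members passing the test were picked out after their values were seen. With cells ranked within genotype AUTS2 (-0.81) and IMMP2L (-0.89) kept their call, while LRP1B stood at -0.04 and NEGR1 at 0.067, and ESRRG and MACROD2 lost theirs. AUTS2 and IMMP2L lie on chromosome 7 and MACROD2 on chromosome 20, whose shares were lower in KO in each stage. In the last stage KO stood below WT for AUTS2 (593 and 857 CPM), IMMP2L (393 and 403) and MACROD2 (1589 and 2332). NEGR1 stood above WT there (617 and 520). NEGR1 and CDH13 lost their call with equal weight per cell (-0.55 and 0.20), with no filter on low counts and without single plates: plates 2, 3, 5, 6 or 8 for NEGR1, at -0.60 to -0.45, and plates 2, 3, 4 or 5 for CDH13, at 0.21 to 0.28.

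PDE4D, which encodes a cAMP phosphodiesterase, at chr5:58969038-60522128, rose from 699 ± 61.2 CPM in WT (626, 691 and 797) to 1121 ± 183 in KO (784, 1128 and 1447). KO was higher on 8 of 8 plates, with a slight overlap between groups (log2 0.68 ± 0.07 SE, limma adjusted p = 3.43e-13). In the last stage it stood at 703 ± 182 in WT and 180 ± 72.9 in KO. The log2 difference between the genotypes in the stage exceeded that in the other stages by 0.95 ± 0.13 (SE, limma adjusted p = 5.35e-08). Of the list the highest label in the stage over all ordered cells was that of DPYD (0.64) and RORA (0.43), and the lowest that of CSMD1 (-2.81) and CNTNAP2 (-2.37); none of these 4 passed between genotypes.

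ESRRG, an orphan nuclear receptor gene at chr1:216503246-217137702, held 222 ± 45.6 CPM in WT (124, 219 and 271) and 80.1 ± 30.3 in KO (29.9, 81.8 and 120), without overlap. LRP1B, a lipoprotein receptor relative at chr2:140231423-142131016, held 496 ± 106 in WT and 263 ± 94.3 in KO. In the last stage both were higher in KO, at 414 ± 165 against 206 ± 101 for ESRRG and 1295 ± 396 against 684 ± 332 for LRP1B. These genes thus carried less KO label in the second stage and more in the last, the reverse of PDE4D.

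Neuronal genes, many of them long and copied late, had 18 of 20 members tested, 7 lower and 1 higher in KO. In each direction 5.3% of all tested genes were called. The list's median log2 change was -0.47. Members tested and named here run from 577 kb (KCNQ5) to 1698 kb (NRXN3), against a median of 118 kb for all tested. The list was not compared with genes of like length. Among the lower were DCC (-1.16), GRIK2 (-1.08), CNTN5 (-0.76), NLGN1 (-0.59) and NRXN3 (-0.30), which encode a netrin receptor, a glutamate receptor subunit and adhesion proteins of neurons, and higher was OPCML (0.32). OPCML stood at 1.01 with cells ranked within genotype, and lost its call with equal weight per cell (0.20) and without plate 1, 2, 4, 5, 6 or 8 (0.30 to 0.32). CNTN5 lost its call without plate 5 or 6 (-0.61 and -0.54) and NRXN3 without plate 1 or 4 (-0.27 and -0.29). With cells ranked within genotype none of these 5 lower genes kept its call, and CNTN5 (0.086) and NRXN3 (0.055) changed sign. The list's median label in the stage over all ordered cells was -1.65, from GABRB2 (-3.36) and CNTN6 (-3.32) to KCNQ5 (0.79) and SYT1 (0.85). NLGN1 fell without overlap, from 431 ± 68.3 to 289 ± 57.0 CPM, and stood at 717 ± 87.2 in KO against 472 ± 48.6 in WT in the third stage.

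Cilia and flagella genes had 14 of 21 members tested, 3 lower and 0 higher in KO by limma voom, beside 5.3% of all tested genes in each direction (also 0 higher at an unadjusted p under 0.05), with a median log2 change of -0.17. DNAH5, a dynein heavy chain of motile cilia at chr5:13690328-14011818, held 136 ± 23.6 CPM in WT and 64.3 ± 33.7 in KO (log2 -1.24 ± 0.30 SE), and 333 ± 66.8 in KO against 197 ± 26.6 in WT in the first stage. CFAP54 (-0.80) and CFAP61 (-0.85) were the others, and CFAP61, on chromosome 20, stood at -0.47 without a call with cells ranked within genotype. The 3 lower genes run from 308 kb (CFAP61) to 386 kb (CFAP54), against a median of 118 kb for all tested. By label in the stage CFAP69 (1.19) and CFAP44 (1.01) stood highest and CFAP47 (-2.57) and IFT140 (-1.18) lowest of the list.

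The other lists had few genes with enough molecules to test. Cell cycle and replication genes had 3 of 25 members tested, RNA polymerase II elongation and repair genes 3 of 22, blood and immune genes 8 of 16, mesenchymal genes 1 of 20, and housekeeping and histone genes 0. None of these genes passed in either direction by limma voom; at an unadjusted p under 0.05, 3 blood and immune genes, 1 cell cycle and replication gene and 1 RNA polymerase II gene were higher in KO and 1 mesenchymal gene, FN1, was lower. Of cell cycle and replication genes 14 of 20 with at least 10 molecules had more label in the stage than in all ordered cells (median log2 0.30). Over all genes with at least 10 molecules this held for 15228 of 23998 (median log2 0.41). Within the list CDK1 (1.16) and PCNA (0.87), the cyclin-dependent kinase of mitosis and the sliding clamp of the replication fork, stood highest. RRM2 (-1.92) and RFC1 (-1.01) stood lowest. For RNA polymerase II genes ERCC8 (1.04) and UVSSA (0.86), both of transcription-coupled repair, stood highest and ELL (-1.83) and RECQL5 (-1.50) lowest. For mesenchymal genes CCN2 (1.14) and FN1 (0.48) stood highest and LAMC1 (-1.95) and ACTN1 (-1.79) lowest, for housekeeping genes HNRNPK (0.69) and NPM1 (0.55) against YWHAZ (-0.59) and PKM (-0.56), and for blood and immune genes CD8A (1.01) and PTPRC (0.97) against CSF1R (-1.36) and IKZF1 (-0.68). The single histone gene with at least 10 molecules was H2BC5 (-1.26).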

How the data were processed

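The deposited files list fragments by cell and genotype with their genome positions, per the file headers, and no other measured value. GRCh38 was the genome build, per the submitters' processing notes. The aligner, and how duplicates were handled, are not stated in the sources used here. The labels do not say whether plates are separate cultures; p-values therefore describe the spread between these plates, which may be technical.

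Each fragment was taken as 1 molecule. Genes were placed with RefSeq coordinates for GRCh38. Timing of a 500 kb bin is the mean position of the cells that labelled it, from the other 7 plates. Molecules were summed per 5 Mb window or gene body, plate and genotype and tested with limma 3.58.1 voom in R 4.3.3, for features with a mean of at least 10, at an adjusted p under 0.05; no count test was used because the files hold positions. Python 3.11.15 with numpy 2.4.6 and pandas 2.3.3 did the rest. The procedures were tested on simulated data.

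Plates pair the genotypes because the titles place both on each plate; over 5674 genes, the mean correlation of a plate's KO and WT deviations was -0.0021 (-0.041 to 0.043), and 0.00029 across plates. Named genes are the 10 most labelled long genes in the stage, the 10 called genes that moved furthest up and the 10 furthest down, the 2 highest and 2 lowest of each of 9 lists, and CFAP20; windows are the 5 greatest in each direction. Some list members are counted but not reported here by name. Members and lists were chosen with earlier results of these data known. Alternatives covered the molecule minimum, bin size, chromosomes and bounds of the order, ranking within genotype, duplicates, thinning, high-count bins, scaling, filtering, cell weights, the block and each plate left out.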

Additional observations from a re-analysis of the deposited data

Results flagged for a closer look

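Of 30 groups of 8 plate values looked at, 5 held a plate standing apart from the others; chance alone sets apart about 1 in 20. KO plate 8 had the lowest number of molecules per cell, 13.57 on the log2 scale, which is 12148.5 molecules. On plate 3 the difference between the genotypes in molecules, -0.018 on the log2 scale, lay nearest to 0. Labelled regions stood apart on KO plate 7, the highest at 12.79 (7074 regions), and on WT plate 5, the lowest at 12.62 (6297 regions). The KO minus WT difference in regions of plate 7, 0.037, was the only one above 0. The gene body ratio was higher in KO on every plate in the second stage and lower in KO on every plate in the last. The change between them was 0.27 (exact sign-flip p = 0.00781, added after the values had been seen and not adjusted). With cells ranked within each genotype the second stage's difference stood at -0.066.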

How the results depend on the processing

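Track width and labelled regions kept their direction and their call under every alternative other than leaving out a plate. With positions ranked within each genotype, molecules per cell stood at -0.54 (adjusted exact sign-flip p = 0.0521). The gene body ratio turned to -0.066 (adjusted exact sign-flip p = 0.0781). In that setting 158 windows were lower and 167 higher, and 4 of the 118 lower windows were called higher. Of genes, 815 were lower and 837 higher. Of the 301 lower and the 301 higher genes 150 and 248 were called again, and 37 and 2 had the opposite sign. Among these, 3 lower genes were called higher. Also reversed there, without a call, were the chromosome 14 window (-0.069), CNTN5 (0.086), NRXN3 (0.055) and NEGR1 (0.067); the cause was not tested. With bounds 0.3 to 0.55 molecules (-0.53) and the gene body ratio (0.10, adjusted p = 0.0586) lost their call, and with bounds 0.2 to 0.45 label around gene starts (0.039) gained one. Thinning to 5000 molecules turned molecules per region to 0.34. Without a filter on low values 730 genes were higher and 311 lower, of 42375, and CNTN5, OPCML, NRXN3, NEGR1 and CDH13 lost their call; with equal weight per cell OPCML, NEGR1 and CDH13 did, and with median-of-ratios scaling NEGR1 (-0.55).

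The fit without the replicate block, which ignores the pairing by plate, gave 319 lower and 261 higher genes and 113 windows in each direction; label around gene starts, 0.027, then passed (adjusted p = 0.0348). No other call of a value named here changed. Leaving out a plate moved molecules between -0.67 and -0.55, width between 1.69 and 1.94 kb, regions between -0.39 and -0.32, the gene body ratio between 0.10 and 0.12 and label around starts between 0.021 and 0.034; with 7 plates the smallest exact p is 0.0156, and the largest adjusted p was 0.0521 for molecules, width and the gene body ratio and 0.0781 for regions. Without 1 plate 217 to 268 genes were lower and 231 to 283 higher.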
